A study of Mus musculus with 35 samples.

Results

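The response of cardiac fibroblasts (CFs) to interleukin-17 (IL-17) was measured in cells that carried a scrambled siRNA. It rests on 6 of the 35 RNA-Seq libraries of the study, 3 of untreated Scrambled CFs and 3 of Scrambled CFs given IL-17, chosen by their labels. The deposited tables list 55487 genes, and 21219 passed the filter on low counts and were tested. CFs are the matrix-producing cells of the heart. They were primary cells of adult mice, dissociated with enzymes, plated on collagen and grown in serum, so that other adherent cells of the heart may be among them. All 6 libraries carried the negative control siRNA that the labels call si-NC and the study Scrambled, so none had a knockdown of IAMP, the micropeptide the study is about. The stimulated cells had the siRNA for 24 h and then IL-17 for 24 h. The times of the untreated cells, the dose of IL-17 and the strain and sex of the donors of the CFs are not given in the sources used here. The untreated and the IL-17 libraries stand in separate tables, so the stimulus and the table cannot be told apart in any difference below. The labels do not say whether the 3 libraries of a group came from separate cultures or animals, so p values measure only a spread between libraries that may be technical. That spread was estimated over 18 libraries in 6 groups of 3, which include CFs with the siRNAs against IAMP.

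IL-17 is a cytokine of T helper 17 cells and other lymphocytes. It binds a receptor made of the chains IL-17RA and IL-17RC, which recruits the adaptor Act1 and the ubiquitin ligase TRAF6 and activates NF-κB, mitogen-activated protein kinases and the C/EBP transcription factors. In fibroblasts and epithelial cells it is known for chemokines that attract neutrophils, for IL-6 and for antimicrobial proteins, and for making short-lived mRNAs of these genes more stable.

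The libraries held 114763924 to 119232309 estimated counts in the untreated group and 115275270 to 117110809 in the IL-17 group. Levels are given as CPM, estimated counts scaled to one common library total after normalization, and 18 estimated counts, about 0.15 CPM, were taken as the floor of detection. Fibroblast markers were high in all 6 libraries, with Pdgfra, a receptor of fibroblasts, at 346, 362 and 343 CPM in the untreated and 440.2, 421 and 444 CPM in the IL-17 libraries and the proteoglycan Dcn at 570.5, 527 and 619 and 741, 759 and 749 CPM. Both were higher with IL-17, while the list of CF identity that holds them had a median log2 fold change of −0.175. The cardiomyocyte gene Myh6 and the T cell gene Cd3e were too low to be tested. Hepatocyte transcripts marked single libraries. The summed level of 23 hepatocyte markers was 1.36, 1.3 and 137 CPM in untreated libraries 1, 2 and 3, and 176, 2.14 and 117 CPM in IL-17 libraries 1, 2 and 3. Untreated library 3 and IL-17 libraries 1 and 3 therefore stood apart, and none of the 23 markers was called different between the groups, although their median log2 fold change was 1.02. Their part in the results below was not tested, and where leaving out these 3 libraries cost a named gene its call, the value without them is given. That fit keeps untreated libraries 1 and 2 and only IL-17 library 2 of the Scrambled CFs. With so few libraries, a lost call does not tell whether liver transcripts had a part in it. 4930523C07Rik, the gene of IAMP, stood at 21.99, 22.6 and 25.7 CPM in the untreated libraries and at 18.5, 20.7 and 16.8 CPM in the IL-17 libraries, a log2 fold change of −0.33 (standard error 0.10, adjusted p = 0.0281) that is under the size threshold.

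IL-17 raised 446 genes and lowered 207 at a change of at least 1.5-fold and an adjusted p of at most 0.05. The test was the quasi-likelihood test of edgeR with Benjamini-Hochberg adjustment, and adjusted p values and log2 fold changes below come from it. A fit of the 6 Scrambled libraries alone called 396 genes higher and 166 lower. The 446 and 207 calls of the main fit are 2.1% and 0.976% of the genes tested, and these shares are to be set beside each count of list members below. Of the genes called higher, 231 rose at least 2-fold and 84 at least 4-fold, whereas 65 and 17 of those called lower fell by as much. The median log2 fold change over all genes tested was −0.012. In 434 of the 446 higher genes every IL-17 library lay above every untreated library, and in 201 of the 207 lower genes below. Groups that do not overlap were common at this depth, with 12.1% of all genes above and 14.4% below, so such a separation alone says little. Of the 653 calls, 20 were of genes at or under the floor in all 6 libraries and 42 of genes at or under it in one group. Without the 3 libraries with liver transcripts, an alternative chosen after these were seen, 344 genes were called higher and 165 lower, and 306 and 109 of these were among the calls above.

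**Figure D1:**
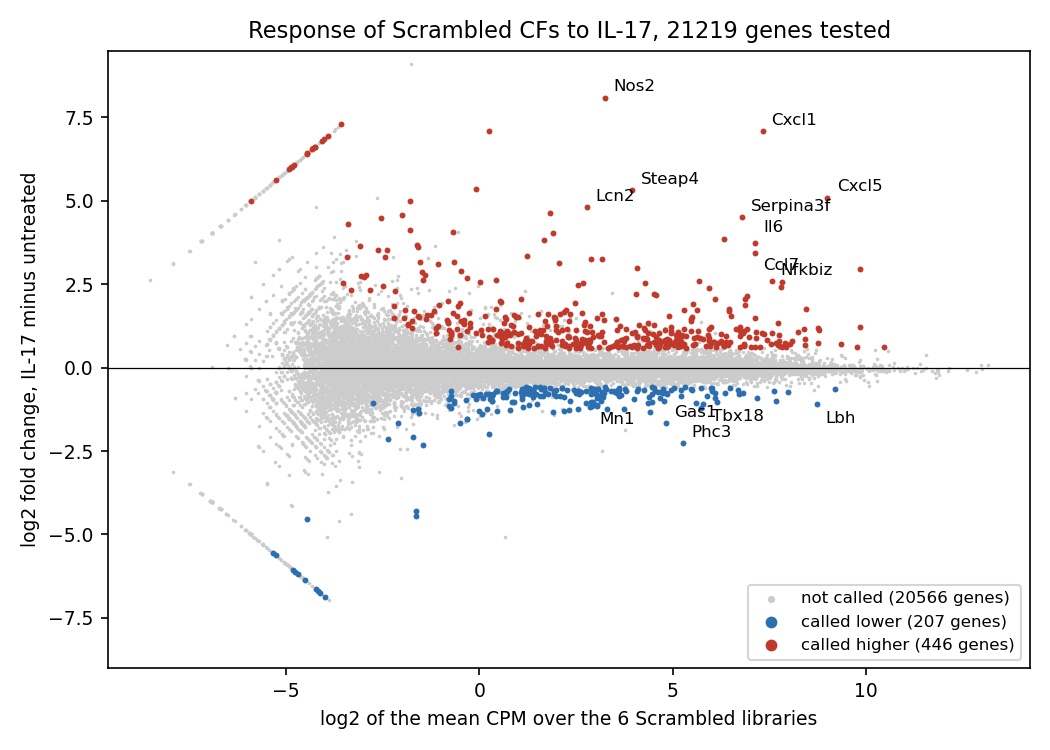
Log2 fold change between IL-17 and untreated Scrambled CFs (vertical axis) against the log2 of the mean CPM over the 6 libraries (horizontal axis) for each of 21219 genes, with 446 called higher in red, 207 called lower in blue and the rest in gray. The largest rises with a high level are chemokines and secreted proteins such as Cxcl1 and Cxcl5, and the diagonal lines at the left are genes at 0 in all libraries of one group, whose fitted change has no fixed size.

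The chemokines that attract neutrophils through the receptor CXCR2 were among the largest rises. Cxcl1 stood at 2.75, 2.57 and 1.76 CPM in the untreated libraries and at 342, 309 and 309 CPM in the IL-17 libraries, a log2 fold change of 7.09 (standard error 0.13, adjusted p = 1.11e-13). Cxcl5 went from 29.8, 29.6 and 27.9 CPM to 1022, 954 and 1006 CPM, a change of 5.09 (standard error 0.047, adjusted p = 3.09e-29). The spread within each group was small against these changes, and the groups were far apart in both genes. Cxcl2 was near the floor in untreated cells at 0.404, 0.274 and 0.136 CPM and reached 7.76, 6.03 and 6.62 CPM, and Cxcl3 rose from 0.569, 0.341 and 0.401 CPM to 6.75, 6.94 and 7.64 CPM. Their log2 fold changes were 4.64 (standard error 0.40, adjusted p = 1.98e-06) and 4.02 (standard error 0.18, adjusted p = 3.41e-11) in edgeR with Benjamini-Hochberg adjustment. Among 11 CXC chemokines tested, 6 rose and none fell, with a median of 2.05. The other 2 that rose were Cxcl16, a membrane-bound chemokine for T cells, which went from 26.6 ± 3.12 to 110.0 ± 1.69 CPM (SD, n = 3), and Cxcl10, an interferon-inducible chemokine, at 13.6, 3.12 and 7.91 CPM in the untreated libraries and at 55.9, 37.2 and 19.6 CPM in the IL-17 libraries. Cxcl10 was uneven within both groups, its log2 fold change was 2.19 (standard error 0.57, adjusted p = 0.0221), and the call was lost without untreated library 2, without untreated library 3 or without IL-17 library 1, with adjusted p values of 0.0642, 0.0762 and 0.0994. The adjusted p was 0.236 without the 3 libraries with liver transcripts and 0.172 in a fit of the 6 Scrambled libraries alone. Cxcl12, a chemokine that fibroblasts make constitutively and that retains leukocytes and progenitor cells, stood at 255, 244 and 242 CPM without and 188, 177 and 183 CPM with IL-17. Its log2 fold change of −0.43 (standard error 0.041, adjusted p = 1.03e-08) did not reach 1.5-fold, although the groups did not overlap.

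The start regions of some of these genes hold letters that NF-κB is known to bind. Only genes with a match are shown, so the set says nothing of the others. Cxcl1, Cxcl2, Cxcl3, Ccl20 and Il6 are shown because they are among the 15 largest rises of genes with at least 5 CPM and hold a κB motif just before their start in the RefSeq promoter table, and Nfkbia because it encodes the inhibitor that NF-κB itself induces. The sequences are of the GRCm38.p6 build, 5′ to 3′ on the strand of the gene, and capitals mark matches of the κB motif, of the C/EBP motif TTGCNNAA or of the AP-1 motif TGANTCA on either strand.
Cxcl1, chr5:90891091-90891240, plus strand: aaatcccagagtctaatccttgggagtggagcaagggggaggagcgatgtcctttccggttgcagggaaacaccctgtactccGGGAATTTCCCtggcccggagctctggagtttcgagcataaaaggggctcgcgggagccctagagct
Cxcl2, chr5:90903721-90903870, plus strand: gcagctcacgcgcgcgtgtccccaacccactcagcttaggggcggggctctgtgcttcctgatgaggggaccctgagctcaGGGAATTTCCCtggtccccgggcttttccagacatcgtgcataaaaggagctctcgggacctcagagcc
Cxcl3, chr5:90785951-90786100, plus strand: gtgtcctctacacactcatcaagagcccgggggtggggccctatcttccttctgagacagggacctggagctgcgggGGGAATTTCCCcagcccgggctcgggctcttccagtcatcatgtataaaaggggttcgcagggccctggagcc
Ccl20, chr1:83116616-83116765, plus strand: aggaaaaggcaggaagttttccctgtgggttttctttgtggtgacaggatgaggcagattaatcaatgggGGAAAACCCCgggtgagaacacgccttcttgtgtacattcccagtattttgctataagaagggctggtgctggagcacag
Il6, chr5:30012864-30013113, plus strand: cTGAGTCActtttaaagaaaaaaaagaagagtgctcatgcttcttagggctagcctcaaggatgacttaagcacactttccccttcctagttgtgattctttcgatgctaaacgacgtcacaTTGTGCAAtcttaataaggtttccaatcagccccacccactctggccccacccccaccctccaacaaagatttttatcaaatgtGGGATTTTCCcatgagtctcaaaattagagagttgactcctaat
Nfkbia, chr12:55492648-55492797, minus strand: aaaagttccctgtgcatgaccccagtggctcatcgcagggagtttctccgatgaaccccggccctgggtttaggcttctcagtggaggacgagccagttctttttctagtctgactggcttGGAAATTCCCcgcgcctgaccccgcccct

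In Cxcl1, Cxcl2 and Cxcl3 the same 11 letters, GGGAATTTCCC, begin 71, 97 and 73 bases before the start and hold 2 overlapping matches, 1 on each strand. In Ccl20 the match GGAAAACCCC begins 80 bases before the start and in Nfkbia GGAAATTCCC 29 bases before it. Il6 holds all 3 motifs, an AP-1 match 249, a C/EBP match 128 and a κB match 44 bases before the start. In the 250 bases before and 50 after the start, the κB motif was found in 16.9% of the 290 called-higher genes with a promoter in the table, in 5.8% of the 138 called-lower genes and in 6.25% of all 13379 tested genes with one. Among the 53 genes called higher by at least 4-fold it was found in 30.2%. The C/EBP motif was in 16.6%, 7.97% and 10.7% of the higher, lower and all genes, and the AP-1 motif in 14.5%, 10.9% and 7.24%. A match is a description of letters and was not tested as a site.

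Chemokines of the CC family that attract monocytes also rose. Ccl2, the main ligand of CCR2 on monocytes, stood at 217, 193 and 219 CPM in the untreated libraries and at 1614, 1675 and 1622 CPM in the IL-17 libraries, a log2 fold change of 2.96 (standard error 0.055, adjusted p = 7.10e-18). Ccl7, another CCR2 ligand, went from 25.1, 21.3 and 24.4 CPM to 255, 249.7 and 259.9 CPM, a change of 3.43 (standard error 0.05, adjusted p = 4.36e-23). Both were even within their groups. Ccl20, which attracts CCR6-bearing T helper 17 cells, rose from 0.652, 0.441 and 0.184 CPM to 5.73, 6.03 and 6.24 CPM with a log2 fold change of 3.82 (standard error 0.23, adjusted p = 7.40e-09). Ccl8 rose from 0.393 ± 0.0516 to 1.05 ± 0.445 CPM (SD, n = 3), with IL-17 library 3 the highest, and its adjusted p was 0.0597 without the 3 libraries with liver transcripts. Of 15 members of this list tested, 5 were called higher and none lower, with a median of 1.41, or 0.23 when genes at the floor in 1 group are set to their bound and genes at the floor in both to no change. The fifth call was Ccl11, an eosinophil chemokine, which was listed at 0 in the untreated libraries and at 0.174, 0.124 and 0.0985 CPM with IL-17, around the floor, so that no fold is given.

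The cytokine Il6, a driver of the acute-phase response, stood at 20.2, 19.3 and 18.7 CPM in the untreated libraries and at 279, 250.3 and 253 CPM in the IL-17 libraries. Its log2 fold change was 3.75 (standard error 0.046, adjusted p = 3.83e-27). Lif, of the same family, rose from 74.1, 69.6 and 67.8 CPM to 387, 367 and 373 CPM, a change of 2.41 (standard error 0.057, adjusted p = 4.22e-16). The IL-17 libraries were far above the untreated ones in both genes. Il11, a further member known from fibrosis, rose from 1.8 ± 0.228 to 3.81 ± 0.857 CPM (SD, n = 3). Csf2 and Csf3, the colony-stimulating factors of granulocytes and macrophages, were at or under the floor in every untreated library and stood at 2.3, 2.56 and 2.25 CPM and 0.722, 0.439 and 0.517 CPM with IL-17, at least 15.8-fold and at least 3.74-fold higher. Csf1, the macrophage growth factor, stood at 2719, 2628 and 2520 CPM without and 3310, 3455 and 3395 CPM with IL-17, and its log2 fold change of 0.37 (standard error 0.028, adjusted p = 1.28e-10) stayed under 1.5-fold. Of 24 cytokines tested, 8 were called higher and none lower, with a median of 0.55. The remaining calls were the alarmins Il1a, at least 4.38-fold higher, and Il33, which rose from 2.72 ± 0.747 to 7.2 ± 0.661 CPM (SD, n = 3), and Tslp, an epithelial cytokine that went from 2.59 ± 0.199 to 3.9 ± 0.361 CPM (SD, n = 3). Tslp lost its call without untreated library 2 or without IL-17 library 2, with log2 fold changes of 0.52 to 0.53. Il1b and Osm were too low to be tested.

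Parts of the IL-17 pathway itself moved unequally. The receptor chains that bind IL-17 stayed close between the groups, with Il17ra at 55.3, 57.8 and 52.3 CPM in the untreated libraries and at 54.1, 55.5 and 55.7 CPM in the IL-17 libraries and Il17rc at 24.9, 22.5 and 26.5 CPM and 22.7, 25.8 and 24.99 CPM. Neither gene passed the test (log2 fold changes −0.0013 and −0.0063, standard errors 0.04 and 0.067). Il17rd, a receptor chain also known as an inhibitor of growth factor signaling, stood at 19.8, 21.4 and 20.4 CPM without and 14.3, 13.8 and 14.1 CPM with IL-17, a log2 fold change of −0.54 (standard error 0.084, adjusted p = 2.60e-05) that is under 1.5-fold. Traf3ip2, which encodes Act1, had a change of 0.53 (standard error 0.065, adjusted p = 8.25e-07), also under the threshold, and Traf6 one of 0.036 (standard error 0.057, adjusted p = 0.834). Downstream, 4 of 5 inducible cofactors rose. Nfkbiz, which encodes IκBζ, a nuclear cofactor needed for part of the IL-17 response, stood at 54.2, 56.2 and 53.9 CPM in the untreated libraries and at 330.3, 332 and 321 CPM in the IL-17 libraries with a log2 fold change of 2.58 (standard error 0.032, adjusted p = 4.53e-27). Cebpd and Cebpb, the C/EBP factors of this pathway, rose from 45.1 ± 1.82 to 187 ± 11.5 CPM and from 38.1 ± 2.34 to 89.04 ± 5.03 CPM (SD, n = 3 each). Their log2 fold changes were 2.05 (standard error 0.045, adjusted p = 8.94e-22) and 1.23 (standard error 0.049, adjusted p = 7.17e-16) in edgeR. Arid5a, which binds and stabilizes inflammatory mRNAs, had 0.85 (adjusted p = 5.58e-10). Zc3h12a encodes Regnase-1, an endonuclease that degrades the same class of mRNAs and limits the response, and it rose from 11.4, 10.3 and 9.69 CPM to 152, 157 and 146 CPM, a log2 fold change of 3.86 (standard error 0.053, adjusted p = 5.46e-26). The kinase Ikbke had 1.03 (standard error 0.048, adjusted p = 1.12e-14) and the inhibitor Tnip1 0.98 (standard error 0.051, adjusted p = 8.23e-14), while Tnfaip3, which encodes the deubiquitinase A20, had 0.53 (standard error 0.056, adjusted p = 7.82e-08) and stayed under the threshold. In all, 7 of 25 members of the list were called higher and none lower, and the median was 0.14.

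Among 13 genes of the NF-κB pathway 7 rose and none fell, with a median of 0.69. Nfkb1, which encodes the precursor of p50, stood at 123, 119 and 121 CPM in the untreated libraries and at 307, 304 and 303 CPM in the IL-17 libraries, a log2 fold change of 1.33 (standard error 0.026, adjusted p = 7.34e-23). Nfkbia, the inhibitor IκBα, went from 18.8, 16.9 and 18.9 CPM to 59.1, 60.6 and 61.1 CPM, a change of 1.73 (standard error 0.05, adjusted p = 3.92e-19). Each IL-17 library exceeded each untreated one in both genes. Bcl3, a nuclear IκB protein, rose from 3.75 ± 0.652 to 29.9 ± 2.24 CPM (SD, n = 3), and the subunits Nfkb2, Rel and Relb had log2 fold changes of 0.69, 0.93 and 0.74. Nfkbid, a further nuclear IκB protein, had 1.58 with an adjusted p of 3.16e-06 in edgeR. Rela, the p65 subunit, had 0.31 (standard error 0.039, adjusted p = 1.06e-06), under 1.5-fold. The kinases that phosphorylate IκB were close to level, at 0.18 (standard error 0.037, adjusted p = 8.80e-04) for Ikbkb and −0.021 (standard error 0.032, adjusted p = 0.832) for Chuk, and neither was called.

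Secreted acute-phase and iron-handling genes and the inducible nitric oxide synthase gave further large rises. Nos2, which makes nitric oxide from arginine, stood at 0.148, 0.0582 and 0 CPM in the untreated libraries and at 19.3, 20.2 and 17.5 CPM in the IL-17 libraries. All untreated libraries were at or under the floor, and Nos2 was at least 127-fold higher with IL-17 (adjusted p = 2.27e-08). Lcn2, a protein that withholds iron siderophores from bacteria, went from 0.173, 0.416 and 0.81 CPM to 14.6, 13.7 and 11.6 CPM, a log2 fold change of 4.82 (standard error 0.36, adjusted p = 5.06e-07). Steap4, a metalloreductase, rose from 0.775, 0.391 and 1.11 CPM to 31.6, 29.1 and 30.4 CPM, a change of 5.31 (standard error 0.20, adjusted p = 2.93e-11). In these 3 genes the untreated libraries varied at a low level and the IL-17 libraries were even at a high one. Ptx3, a pattern recognition protein, rose from 161 ± 5.92 to 539 ± 0.823 CPM (SD, n = 3) and the iron carrier Trf from 49.8 ± 14.9 to 84.4 ± 12.6 CPM (SD, n = 3). Trf was at 42.1, 40.3 and 66.9 CPM in the untreated libraries, highest in the one with liver transcripts, and at 94.7, 70.3 and 88.1 CPM with IL-17, lowest in the one without them. Without the 3 libraries with liver transcripts its log2 fold change was 0.78 against 0.76 with them, and in a fit of the 6 Scrambled libraries alone the call was lost, with an adjusted p of 0.186. Saa3 was at least 3.24-fold higher, and without those 3 libraries its adjusted p was 0.144. S100a8, a subunit of the neutrophil protein calprotectin, was listed at 0 in the untreated libraries and at 0.133, 0.0745 and 0 CPM with IL-17. These levels are at or under the floor, no fold is given, and the call was lost when any library other than IL-17 library 3 was left out, with adjusted p values of 0.0573 to 0.0976. The list had 6 calls higher, that of S100a8 among them, and none lower of 20 tested. Its median of 0.98, which is 0.66 with bounds, also holds liver genes such as Hp and Saa1 that followed the liver transcripts.

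Serpina3f, Serpina3i and Serpina3h, the last annotated as a transcribed pseudogene, belong to a cluster of protease inhibitor genes and similar copies on chromosome 12, whose reads the counting may have split or shared, so each value is uncertain on its own. Serpina3f stood at 9.64, 8.85 and 9.75 CPM in the untreated libraries and at 206, 233 and 202 CPM in the IL-17 libraries, and Serpina3i and Serpina3h rose from 1.39 ± 0.204 to 13.3 ± 0.637 CPM and from 1.7 ± 0.262 to 16.2 ± 1.0 CPM (SD, n = 3 each). Their log2 fold changes were 4.50 (standard error 0.12, adjusted p = 2.58e-12), 3.26 (standard error 0.11, adjusted p = 1.20e-17) and 3.25 (standard error 0.18, adjusted p = 3.41e-11). Serpina3k, a liver gene of the same cluster, was listed at 0 in IL-17 library 2, in which Serpina3f was highest, and the part of liver transcripts in these values was not tested. Neurl3, a ubiquitin ligase gene, completed the 15 largest rises, from 0.726, 0.906 and 0.954 CPM to 7.25, 7.35 and 7.97 CPM and a log2 fold change of 3.12 (standard error 0.17, adjusted p = 1.66e-13).

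Adhesion molecules that capture leukocytes rose in 4 of 10 cases and fell in none, with a median of 0.84 that is 0.49 with bounds. Vcam1, a ligand of integrins on monocytes and lymphocytes, stood at 565, 536 and 568 CPM in the untreated libraries and at 1332, 1266 and 1282 CPM in the IL-17 libraries, a log2 fold change of 1.22 (standard error 0.039, adjusted p = 3.11e-18). Icam1 went from 45.7, 48.1 and 58.3 CPM to 179.7, 192 and 185 CPM, a change of 1.87 (standard error 0.066, adjusted p = 5.83e-13). The selectins Sele and Selp, best known from endothelium, rose from 19.8 ± 0.811 to 104 ± 2.61 CPM and from 37.6 ± 1.31 to 84.7 ± 3.86 CPM (SD, n = 3 each). None of 10 endothelial markers was called, and their summed level was 104 to 119 CPM in untreated and 116 to 124 CPM in IL-17 libraries. Cd44, the hyaluronan receptor, had 0.52 (standard error 0.029, adjusted p = 4.20e-13), under 1.5-fold. In prostaglandin metabolism 4 of 17 genes rose and none fell, beside 2.1% and 0.976% of all genes tested, with a median of 0.047. Ptgs2, the inducible cyclooxygenase, stood at 279.5, 279 and 235 CPM in the untreated libraries and at 633, 587 and 601 CPM in the IL-17 libraries, a log2 fold change of 1.20 (standard error 0.063, adjusted p = 1.01e-09), and Ptges, the prostaglandin E synthase, rose from 2.08 ± 0.188 to 5.62 ± 0.836 CPM (SD, n = 3). The prostacyclin receptor Ptgir rose from 18.2 ± 1.25 to 29.2 ± 0.403 CPM (SD, n = 3), and the receptor Ptgfr was at least 1.47-fold higher, a call lost when any library other than untreated library 3 was left out, with adjusted p values of 0.0678 to 0.139. Of 21 complement genes, Cfb and Clu rose, from 3.4 ± 0.454 to 6.36 ± 0.945 CPM and from 27.5 ± 3.22 to 53.2 ± 4.6 CPM (SD, n = 3 each), and the median was 0.12. The share of all genes tested that was called higher was 2.1%.

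Matrix genes and markers of fibroblast activation moved little. None of 30 genes of the activation list was called in either direction, and the median was −0.094. Acta2, smooth muscle actin of myofibroblasts, stood at 1054, 1022 and 1060 CPM in the untreated libraries and at 902, 877 and 903 CPM in the IL-17 libraries, a log2 fold change of −0.23 (standard error 0.031, adjusted p = 5.81e-06). Every IL-17 library was below every untreated library there, at a change under the threshold. Col1a1, Col3a1 and Postn had log2 fold changes of −0.078, −0.07 and −0.10. Mmp3, the stromelysin gene that the study follows, stood at 376, 376 and 432 CPM in the untreated libraries and at 399, 395 and 442 CPM in the IL-17 libraries, with a log2 fold change of 0.061 (standard error 0.065, adjusted p = 0.705), and the collagenase Mmp13 stood at 2.81, 1.86 and 1.8 CPM and 2.19, 2.4 and 2.47 CPM, with 0.12 (standard error 0.14, adjusted p = 0.721). Neither was called. From qPCR and ELISA the study reports that IL-17 increased Il6, S100a8 and Mmp3. For Mmp3 the RNA-Seq levels here did not show such a rise, and the reason was not tested. Of 28 matrix proteases and inhibitors, 2 rose and 2 fell, beside 2.1% and 0.976% of all genes tested, with a median of −0.071. Adamts4 and Adamts9 rose from 10.2 ± 0.927 to 16.1 ± 0.572 CPM and from 34.5 ± 2.51 to 64.98 ± 4.25 CPM, whereas Adamts5, an aggrecanase, fell from 274 ± 7.76 to 137 ± 5.15 CPM and Timp3, an inhibitor of metalloproteinases, from 709 ± 23.3 to 459 ± 14.4 CPM (SD, n = 3 each). In the list of CF identity 1 of 21 genes was called, and the median was −0.175. The summed level of this list was 9260 to 9690 CPM in untreated and 8460 to 8690 CPM in IL-17 libraries. Tbx18, a transcription factor of the epicardium from which many CFs derive, stood at 76.6, 76.2 and 74.05 CPM in the untreated libraries and at 35.8, 33.7 and 37.01 CPM in the IL-17 libraries, a log2 fold change of −1.09 (standard error 0.037, adjusted p = 1.12e-17), while Tcf21, another such factor, had −0.074 (standard error 0.046, adjusted p = 0.38) and was not called.

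Interferon-stimulated genes varied within the groups. Of 30 tested, 4 were called higher and none lower, beside 2.1% and 0.976% of all genes tested, and the median was 0.56. Gbp2 stood at 26.4, 22.1 and 24.1 CPM in the untreated libraries and at 48.6, 58.4 and 35.7 CPM in the IL-17 libraries, Zbp1 at 12.5, 8.59 and 9.53 and 20.2, 29.02 and 13.1 CPM, Oas2 at 7.37, 3.6 and 4.9 and 10.3, 12.3 and 7.33 CPM, and Oasl1 at 5.78, 2.81 and 4.0 and 10.9, 10.97 and 5.18 CPM. In each, IL-17 library 3 was the lowest of its group, and in Oas2 and Oasl1 it overlapped with the untreated libraries. Their adjusted p values were 0.0211, 0.0442, 0.0319 and 0.0299 in edgeR. Each of these calls was lost without untreated library 2 or 3 and without IL-17 library 1 or 2, and Zbp1 also without untreated library 1, with adjusted p values of up to 0.0886 for Gbp2, 0.192 for Zbp1, 0.119 for Oas2 and 0.111 for Oasl1. Without the 3 libraries with liver transcripts, which leaves only IL-17 library 2 in its group, Gbp2, Zbp1 and Oas2 also lost their calls. Their log2 fold changes were then 1.27, 1.46 and 1.17, against 0.97, 1.02 and 0.91 with all libraries. In a fit of the 6 Scrambled libraries alone all 4 calls were lost, with adjusted p values of 0.0528 to 0.227.

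Hif1a, the oxygen-regulated transcription factor that the study follows, rose from 199, 203 and 194 CPM to 328, 325 and 331 CPM, a log2 fold change of 0.72 (standard error 0.026, adjusted p = 3.58e-17). The 2 groups were even and did not overlap. Of 25 HIF-1 targets, 3 rose and 1 fell, beside 2.1% and 0.976% of all genes tested, with a median of 0.0028. The hexokinase Hk2, the growth factor Vegfa and the prolyl hydroxylase Egln3 rose from 87.0 ± 7.46 to 142 ± 5.46 CPM, from 154 ± 7.35 to 254 ± 7.38 CPM and from 11.4 ± 0.525 to 22.2 ± 1.39 CPM, and Ankrd37 fell from 1.42 ± 0.333 to 0.581 ± 0.216 CPM (SD, n = 3 each). Hk2 had a log2 fold change of 0.70, and of 0.57, just under the threshold, without the 3 libraries with liver transcripts. The chaperones Hsp90aa1 and Hsp90ab1 had −0.073 (standard error 0.028, adjusted p = 0.0927) and 0.021 (standard error 0.026, adjusted p = 0.748) and were not called.

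Among 18 immediate-early and AP-1 genes 5 rose and 1 fell, with a median of 0.33. Ier3, a survival gene and NF-κB target, rose from 41.4 ± 3.19 to 135 ± 4.36 CPM, Junb from 66.9 ± 4.07 to 113 ± 4.92 CPM and Atf3 from 4.1 ± 0.273 to 7.25 ± 0.61 CPM (SD, n = 3 each). Fosl2 and Egr2 had log2 fold changes of 0.64 and 0.65, near the threshold, and fell under it without untreated library 3 and without IL-17 library 1, at 0.585 and 0.57. Without the 3 libraries with liver transcripts both were under it too, at 0.578 and 0.572. Klf2, a factor of quiescence, stood at −0.60 and dropped out of the calls without untreated library 1 or 3 or without IL-17 library 2, at −0.54, −0.57 and −0.58. Of 19 clock genes, the output regulators Nfil3 and Hlf were called higher and Dbp lower, beside 2.1% and 0.976% of all genes tested. Nfil3 rose from 13.5 ± 0.591 to 27.7 ± 1.82 CPM and Dbp fell from 5.87 ± 0.798 to 3.2 ± 0.0618 CPM (SD, n = 3 each), and the adjusted p of Dbp was 0.146 without the 3 libraries with liver transcripts. Hlf, at 0.60, kept its call without untreated library 2 and lost it when any other library was left out, with values of 0.40 to 0.66 and adjusted p values of 0.0608 to 0.271. Its adjusted p was 0.548 without the 3 libraries with liver transcripts. Of 11 genes of the insulin-like growth factor axis, Igf1 was called, from 77.4 ± 3.68 to 51.1 ± 0.133 CPM (SD, n = 3), with a log2 fold change of −0.60, and of −0.56 without untreated library 1, under the threshold. Of 20 NRF2 targets, Slc7a11, the cystine transporter, rose from 25.5 ± 3.55 to 48.8 ± 4.18 CPM (SD, n = 3). In the matrix protease, HIF-1, clock, complement, CF identity, insulin-like growth factor and NRF2 lists, at most 3 genes were called in either direction. Such counts are few to set against the 2.1% higher and 0.976% lower of all genes tested, and nothing is read from them. No gene was called among 43 of the cell cycle, 25 of the unfolded protein response and 23 of sterol and fatty acid synthesis, with medians of −0.054, −0.039 and −0.10.

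**Figure D2:**
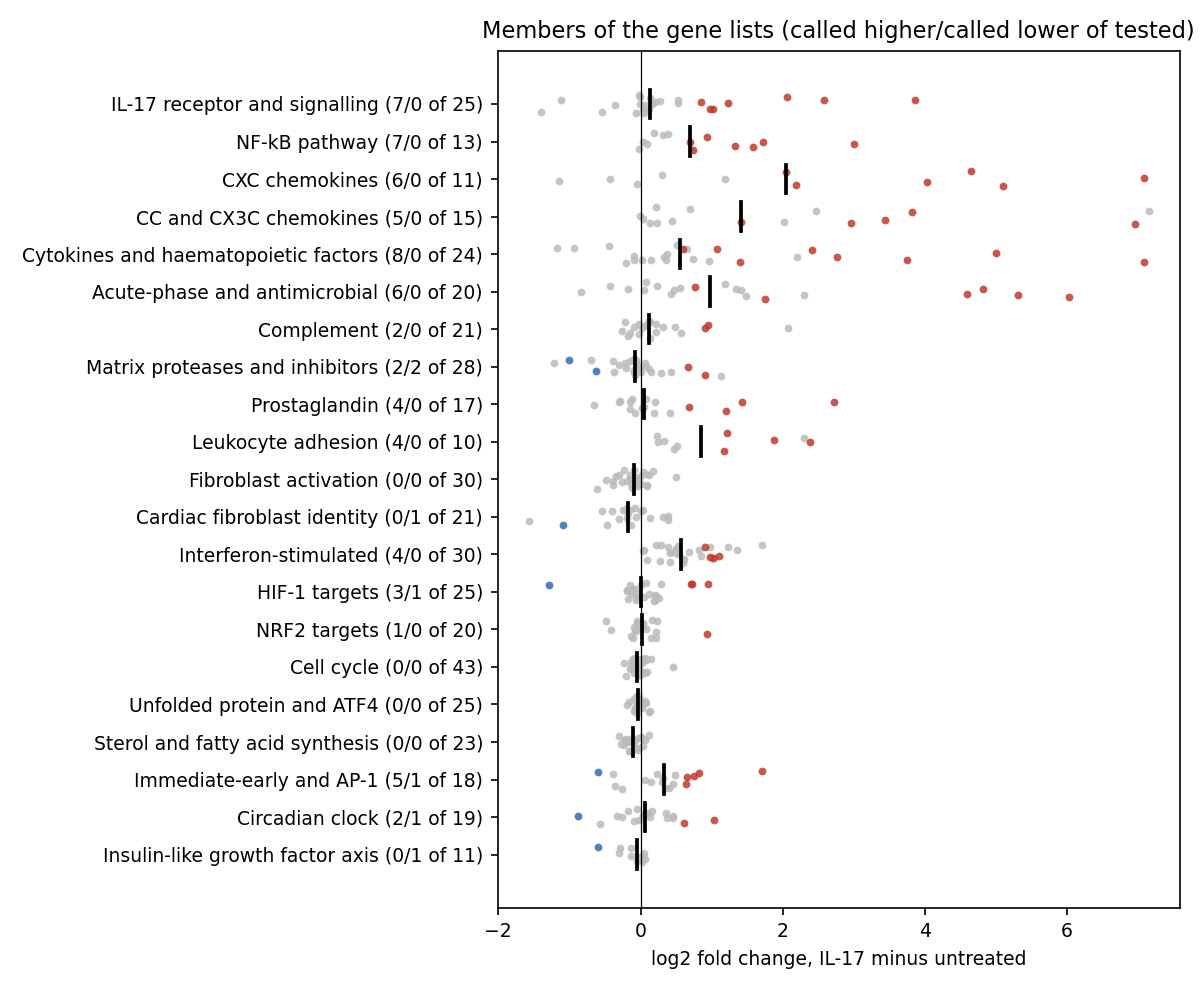
Log2 fold change between IL-17 and untreated Scrambled CFs (horizontal axis) of the tested members of 21 gene lists, 1 point a gene, with calls higher in red, calls lower in blue, other genes in gray and a black bar at the median of each list. The CXC and the CC and CX3C chemokine lists have the highest medians, 2.05 and 1.41. The latter is 0.235 when genes at the floor in 1 group are set to their bound and genes at the floor in both to no change. The cell cycle, sterol and fibroblast activation lists hold no call.

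The falls were smaller than the rises among genes with at least 5 CPM in the higher group, from which the 15 largest changes in each direction were taken. Gas1, a receptor component of Hedgehog signaling that restrains growth, stood at 40.8, 43.4 and 45.4 CPM in the untreated libraries and at 14.3, 12.2 and 14.3 CPM in the IL-17 libraries, a log2 fold change of −1.67 (standard error 0.075, adjusted p = 1.78e-14). Mn1, a transcriptional coregulator, went from 30.3, 29.1 and 31.4 CPM to 11.97, 12.8 and 11.3 CPM, a change of −1.33 (standard error 0.072, adjusted p = 1.80e-13). Both were even within groups. Lfng, which modifies Notch receptors, had −1.32 (standard error 0.18, adjusted p = 4.83e-06), and Heyl, a Notch target, −1.24 (standard error 0.16, adjusted p = 2.05e-06). Lbh, a developmental regulator, fell from 594, 559 and 601 CPM to 269.6, 276 and 279 CPM, with a log2 fold change of −1.09 (standard error 0.028, adjusted p = 3.82e-20). Gadd45g, a stress-inducible growth arrest gene, fell from 74.3 ± 4.7 to 32.4 ± 3.04 CPM and Bambi, a decoy receptor of the TGF-β family, from 10.5 ± 0.505 to 4.69 ± 0.138 CPM (SD, n = 3 each). The other 7 were Ldb3, Sertad4, Akap5, G0s2, Rab3il1, Ripor2 and Tbx18, with log2 fold changes of −1.30 to −1.09. In all 15 the IL-17 libraries lay below the untreated ones, as the rule that named them required. The largest of these 15 falls was that of Phc3, a Polycomb gene, at 63.3, 69.2 and 58.6 CPM in the untreated libraries and at 14.3, 11.3 and 14.2 CPM in the IL-17 libraries. The groups were well apart, yet the standard error was large, with a log2 fold change of −2.26 (standard error 0.57, adjusted p = 0.0174). Its call was lost when any of the 3 IL-17 libraries was left out, with adjusted p values up to 0.0694. The call was also lost without the 3 libraries with liver transcripts, at a log2 fold change of −2.55.

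**Figure D3:**
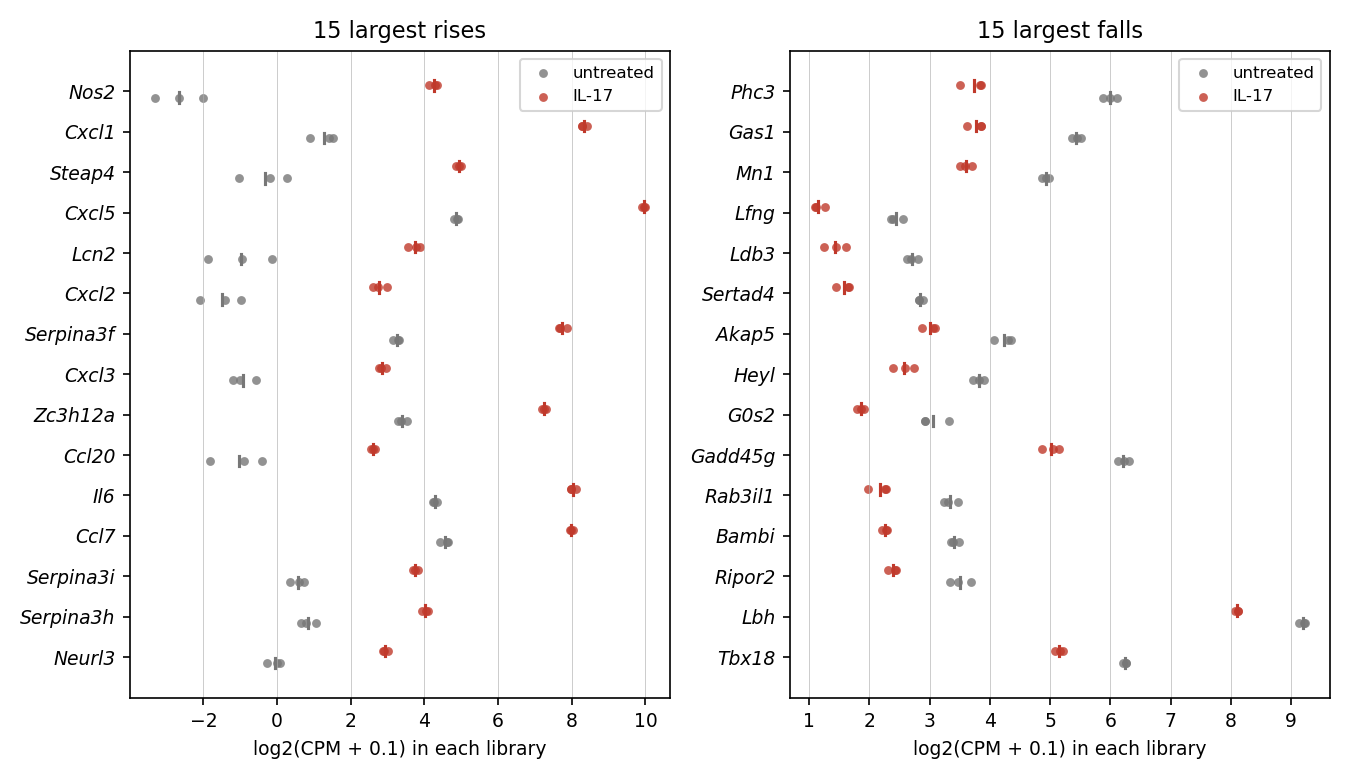
Levels of the 15 genes with the largest rises and the 15 with the largest falls, as log2(CPM + 0.1) on the horizontal axis, with 1 point for each of 3 untreated (gray) and 3 IL-17 (red) libraries and a bar at the mean. The groups do not overlap in any of these genes, as the rule that named them required.

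Markers of other cells were looked at as whole lists. Of 8 mesothelial markers tested, Krt19 and Lrrn4 fell, from 8.44 ± 0.136 to 5.18 ± 0.483 CPM and from 54.2 ± 4.53 to 34.6 ± 2.11 CPM (SD, n = 3 each), and the summed level of the list was 143 to 157 CPM in untreated and 110.0 to 114 CPM in IL-17 libraries. The share of all genes tested that was called lower was 0.976%. Fewer cells of a type and less RNA per cell cannot be told apart in such bulk samples. Lrrn4 went just under the threshold, to −0.58, without untreated library 1. Of 8 cardiomyocyte markers tested Ryr2 fell, from 0.607 ± 0.268 to 0.121 ± 0.0623 CPM (SD, n = 3), near the floor, and the sum was 91.2 to 99.1 CPM and 70.2 to 77.7 CPM. None of 7 smooth muscle and pericyte markers was called, while their sum was 105 to 118 CPM in untreated and 155 to 160.0 CPM in IL-17 libraries. The part of these cells in the results above was not tested. None of 11 macrophage markers was called, and their sum was 64.4 to 69.4 CPM and 64.5 to 66.0 CPM. Of 11 neutrophil and lymphocyte markers 2 were tested and none was called. None of 5 erythroid markers tested was called. Their sum was 0.148, 0.0166 and 1.31 CPM in untreated libraries 1, 2 and 3 and 1.53, 0 and 0.936 CPM in IL-17 libraries 1, 2 and 3. It was thus highest in the 3 libraries with hepatocyte transcripts, at a low level.

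The same comparison in CFs with a siRNA against IAMP used the untreated and IL-17 libraries of IAMP-siR-1 (siR-1) and IAMP-siR-2 (siR-2), with 3 in each group. The response differed from that of Scrambled CFs, by the test of the difference itself, in 95 genes with siR-1 (0.448% of those tested) and in 103 with siR-2 (0.485%). The difference, siRNA minus Scrambled, was positive in 45 and negative in 50 genes with siR-1, and positive in 42 and negative in 61 with siR-2, where a positive difference of a gene that fell can be a smaller fall. Of the 446 genes that rose in Scrambled CFs, 416 and 433 changed in the same direction with siR-1 and siR-2, 261 and 248 were called higher there too, and 44 and 55 differed by the test. Of the 207 genes that fell, 197 and 190 kept their direction, and 6 and 8 differed. The genes were chosen by their call in Scrambled CFs, and both differences share the Scrambled libraries, so they are not independent of each other.

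Cxcl5 had a log2 fold change of 5.09 in Scrambled CFs, 3.24 with siR-1 and 3.05 with siR-2. The differences were −1.86 (standard error 0.057, adjusted p = 6.23e-17) and −2.04 (standard error 0.057, adjusted p = 7.10e-18) in edgeR. The fold rise of this chemokine was thus smaller with either siRNA. A fold does not tell whether the untreated or the IL-17 level differed, and levels were not compared between the siRNA groups. The study reports that knockdown alone raised Il6 and several CXC chemokine genes. From qPCR and ELISA it also reports that knockdown intensified the responses of Il6, S100a8 and Mmp3 to IL-17. Those assays are another measure than the RNA-Seq folds given here, so the values cannot be set against each other. Cxcl1 rose by 6.65 with siR-1, a difference of −0.44 that did not pass the test (standard error 0.17), and by 4.95 with siR-2, a difference of −2.13 (standard error 0.17, adjusted p = 8.07e-06). Il6 rose by 3.41 with siR-1 and by 2.56 with siR-2, and the difference reached the size threshold with siR-2, at −1.19 (standard error 0.058). With siR-1 the difference of Il6 was −0.34 (standard error 0.059, adjusted p = 0.00103 in edgeR), in the same direction but under 1.5-fold. Bcl3 rose by 1.81 and 1.06, Cebpd by 1.07 and 0.79 and Cebpb by 0.61 and 0.29, each called smaller than in Scrambled CFs with either siRNA. Il33 and Ptges went the other way, at 2.34 and 2.66 and at 2.36 and 2.42, and each was called larger. The differences of Lcn2, Cxcl3 and Zc3h12a did not pass the test, at −0.14 and 0.21, −0.24 and −0.52, and −0.25 and −0.13. Their standard errors were 0.48 and 0.51, 0.23 and 0.23, and 0.069 and 0.069. The differences of Nos2 did not pass it either, but its untreated Scrambled libraries were at or under the floor, so that their size cannot be read.

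**Figure D4:**
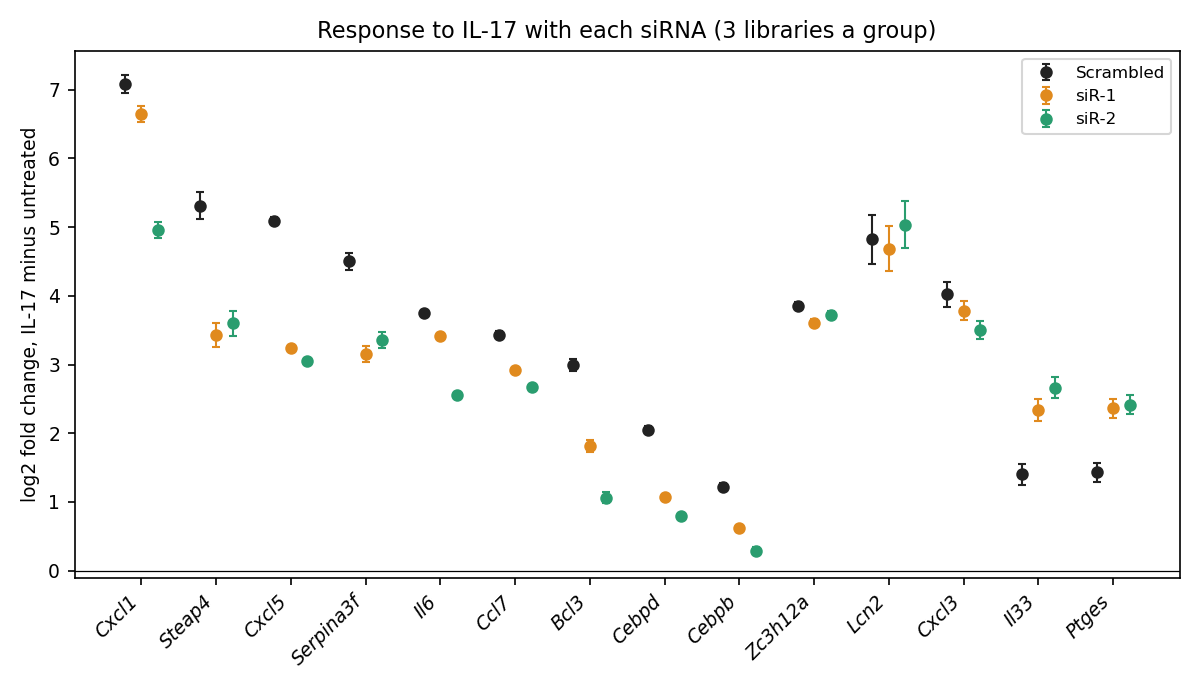
Log2 fold change between IL-17 and untreated CFs (vertical axis) of 14 genes with the Scrambled siRNA (black), siR-1 (orange) and siR-2 (green), with standard errors from the fit and 3 libraries in each group. Cxcl5, Bcl3, Cebpd and Cebpb rose less with either siRNA, Il33 and Ptges rose more, and Lcn2, Cxcl3 and Zc3h12a lay close together.

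The Scrambled CFs of the TGF-β table are shown for their levels only, since that table differs from the others, with 0.0016 to 0.0019% of its counts in histone genes against 0.00037 to 0.0005% in the other Scrambled libraries. In a normalization over all 3 tables, Cxcl5 stood at 1462, 1451 and 1361 CPM in these libraries and at 998 ± 35.2 CPM with IL-17 (SD, n = 3). The mean in the TGF-β table was 208 ± 6.41 CPM for Cxcl1 and 593 ± 7.72 CPM for Ccl7 (SD, n = 3 each). In the same scaling the IL-17 libraries had 321 ± 19.8 and 256 ± 4.38 CPM. These chemokines therefore stood far above the untreated level in both other tables. The same held for all of the 15 largest rises except Serpina3f, so these rises were not particular to the IL-17 table. Some were higher in the TGF-β table, such as Steap4 at 41.7 ± 0.83 CPM against 30.5 ± 1.26 CPM with IL-17. Others were lower there, such as Il6 at 82.1 ± 3.74 CPM against 262 ± 16.3 CPM (SD, n = 3 each). Lcn2 was at 531 ± 7.18 CPM in the TGF-β table and 13.3 ± 1.56 CPM with IL-17, and Mmp3 was at 1479, 1468 and 1490 CPM in the TGF-β table and 413 ± 24.8 CPM with IL-17. Serpina3f and Nfkb1 were high in the IL-17 table, at 215 ± 17.4 and 306 ± 2.95 CPM, and near the untreated level in the TGF-β table, at 13.7 ± 0.985 and 119 ± 2.31 CPM. No test was run, because the table and the stimulus cannot be told apart.

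**Figure D5:**
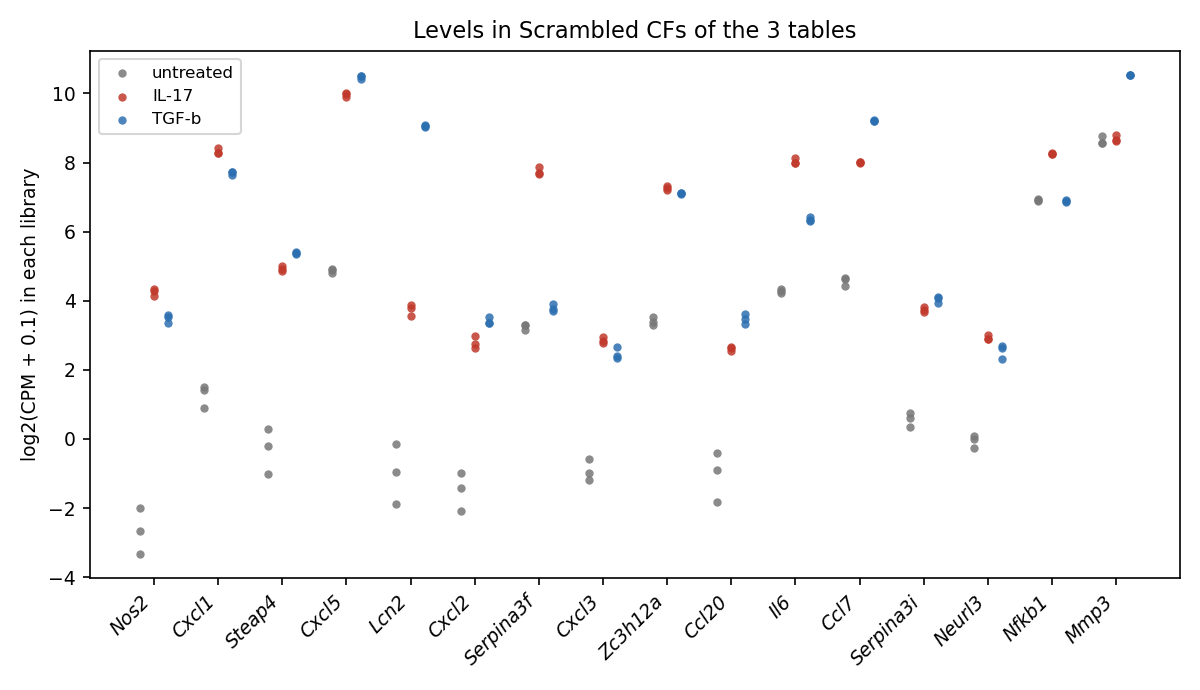
Levels of 16 genes as log2(CPM + 0.1) on the vertical axis, with 1 point for each of 3 Scrambled libraries of the untreated (gray), IL-17 (red) and TGF-β (blue) tables. All genes shown other than Serpina3f, Nfkb1 and Mmp3 stand above their untreated level in both other tables. Serpina3f and Nfkb1 are near it in the TGF-β table, and Mmp3 is near it in the IL-17 table and above it in the TGF-β table.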

How the data were processed

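RNA-Seq libraries of CFs were read from the tables of untreated and IL-17 cells and joined on gene identifier. Per the labels and the study's methods, the authors trimmed reads with Cutadapt, aligned them to GRCm38 with HISAT2 and assembled and quantified transcripts with StringTie. The deposited values are estimated counts as whole numbers, and 6 was the most frequent value of low genes in each table and was taken as the worth of 1 read pair; the step from StringTie to whole numbers is not given in the sources used here. The 8 libraries of whole hearts were not used here. The siRNA columns carry oligo numbers, which were matched to siR-1 and siR-2 through the descriptions of the TGF-β samples. Totals were 114763924 to 119232309 per Scrambled library used in the test.

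Counts were normalized by TMM, filtered with filterByExpr and tested with the quasi-likelihood test of edgeR 4.0.16 in R 4.3.3 over 18 libraries in 6 groups of 3, with robust estimation and no covariate. The contrasts were IL-17 minus untreated in Scrambled CFs and its difference from siR-1 and siR-2. A call needed 1.5-fold and a Benjamini-Hochberg adjusted p of at most 0.05. CPM use TMM library sizes, and an SE is the absolute log2 fold change over the square root of F. A group was at the floor when every library held at most 18 estimated counts, and folds against it are lower bounds over that floor. The floor covers counting error only.

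Gene symbols with more than 1 gene were left out of lists. Named genes were the 15 largest rises and the 15 largest falls among calls without overlap, with at least 5 CPM in the higher group and with no provisional name or place on a marker list. The targeted gene, genes that the study names and, from each list, its largest changes and defining members were named too. The members and lists were chosen with earlier results of these data known. Promoters are RefSeq sequences of GRCm38.p6 matched by symbol for 13379 tested genes, searched 250 bases before to 50 after the start for the κB, C/EBP and AP-1 motifs on both strands. Alternatives were DESeq2 1.42.0, other scalings, filters and sample sets, a block for the replicate number, and leaving out libraries.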

Additional observations from a re-analysis of the deposited data

Results flagged for a closer look

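The results below are those in which the response to IL-17 in CFs with a siRNA against IAMP differed from that in Scrambled CFs by the test of the difference itself, in the quasi-likelihood fit with Benjamini-Hochberg adjustment. All values are differences of log2 fold changes, siRNA minus Scrambled, and where 2 values are given the first is for siR-1 and the second for siR-2. Both share the Scrambled libraries. Groups of 3 libraries are too small for a test of outlying samples.

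The responses with both siRNAs differed for Steap4 by −1.89 and −1.71, Cxcl5 by −1.86 and −2.04, Serpina3f by −1.35 and −1.15, Serpina3i by −1.57 and −1.4 and Serpina3h by −1.01 and −1.31. With siR-2 alone past the threshold, they differed for Cxcl1 by −2.13, Il6 by −1.19 and Ccl7 by −0.764, and with siR-1 alone for Ccl8 by −1.37 and Adamts4 by −0.605. With siR-1, Il6 and Ccl7 had −0.337 and −0.512, which met the limit of adjusted p but were under 1.5-fold. All of these rises were smaller as folds than with the Scrambled siRNA, and levels were not compared between the siRNA groups. Ccl11 differed by −4.8 and −4.46, but it was at 0 in the untreated Scrambled libraries and around the floor with IL-17, so that neither the size nor the sign of these differences can be read.

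Differences below 0 with both siRNAs were also found for regulators, with Cebpb by −0.61 and −0.932, Cebpd by −0.985 and −1.26, Arid5a by −0.597 and −0.858, Bcl3 by −1.18 and −1.94, Nfil3 by −0.683 and −0.771, Socs3 by −1.1 and −1.59 and Map3k8 by −0.866 and −1.37. Socs3 rose in Scrambled CFs, by 1.00, but its own response was −0.11 under siR-1 and −0.59 under siR-2, the latter a fall (adjusted p = 7.44e-07 in edgeR), and Arid5a had 0.25 and −0.0069. The receptors Osmr and Il1r1 differed by −0.609 and −0.643, and Ch25h and Angptl4 by −0.67 and −0.839, in each case with siR-2.

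The response was higher than with the Scrambled siRNA for Mmp13 by 0.794 and 0.873, Il33 by 0.943 and 1.26 and Ptges by 0.931 and 0.987. With siR-1 this held for Tnfaip3 by 1.03, Ptch1 by 0.899 and Ripor2 by 0.627, and with siR-2 for Tslp by 0.96, Rab3il1 by 0.749 and Tbx18 by 0.621. Rab3il1, Ripor2 and Tbx18 fell in Scrambled CFs, so that a positive difference is a smaller fall. The fitted difference of Il1a with siR-1 was 1.98, but its untreated Scrambled libraries were at the floor and its rise there is known only as a lower bound, so that the size cannot be read.

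Phc3 differed by 4.07 with siR-2. It fell by 2.26 on the log2 scale in Scrambled CFs and had a change of 1.81 with siR-2. The call in Scrambled CFs was lost when any 1 of the 3 IL-17 libraries was left out, and the cause of the difference was not tested.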

How the results depend on the processing

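At a threshold of at least 1 on the log2 scale in place of 1.5-fold, 231 genes were higher and 65 lower in Scrambled CFs, and 40 and 35 differed with siR-1 and siR-2. Leaving out each library in turn gave 393 to 439 higher and 180 to 197 lower genes, and the siRNA differences numbered 77 to 98 for siR-1 and 98 to 110 for siR-2. DESeq2 also called 415 of the 446 higher and 188 of the 207 lower genes, and no gene was called in opposite directions under any alternative. Without the 3 libraries with liver transcripts, where the only IL-17 library is assumed to vary like the other groups, 3 uncalled genes changed sign, with Il17rc at 0.128, Traf6 at −0.0659 and Tcf21 at 0.0389, and the cause was not tested. A sign within 1 standard error of 0 in both fits was not counted as a direction.

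Of 115 called genes named in the text, 15 lost their call without at least 1 single library, and none changed direction under any alternative. The calls of Cxcl10, Tslp, Phc3, S100a8, Ptgfr, Klf2, Hlf, Egr2, Fosl2, Igf1, Lrrn4 and the 4 interferon-stimulated genes are those that were lost in this way. Of the same 115 genes, 13 lost their call without the 3 libraries with liver transcripts and 10 in a fit of the 6 Scrambled libraries alone, Ptgfr, Klf2, Hlf and Igf1 among the latter. The fit with a replicate block gave 435 higher and 203 lower genes, and 97 and 102 that differed. Same-numbered untreated and IL-17 libraries had deviations that correlated at −0.11, 0.166 and 0.165 over 13102 genes, so the numbers were not taken as pairs. Under the block Ptgfr, Oasl1 and Zbp1 lost their call among the genes named. Genes at or under 18 estimated counts in both groups have no fold that can be read.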

Other observations

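Genes outside the lists were chosen after their values were seen. Slc7a2, a transporter of arginine, went from 65.8 ± 3.43 to 387 ± 16.7 CPM (SD, n = 3), with a log2 fold change of 2.56 (standard error 0.038, adjusted p = 2.11e-25), and Odc1, the first enzyme of polyamine synthesis, from 209.6 ± 8.07 to 467 ± 24.0 CPM. The receptors Tlr2, Il1r1 and Osmr, for bacterial lipoproteins, IL-1 and oncostatin M, had log2 fold changes of 2.18, 1.17 and 1.05. The kinase Map3k8 had 2.19, and Socs3, an inhibitor of cytokine receptors, 1.00. The metal transporter Slc11a2, the cholesterol 25-hydroxylase Ch25h, the lipase inhibitor Angptl4, the Hedgehog receptor Ptch1 and the hyaluronan synthase Has1 had 1.54, 1.497, 2.15, 1.73 and 1.10. In each of these genes every IL-17 library was above every untreated one.

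The falls named next were also chosen after their values were seen, and no list of their pathways was counted. Hes1, a Notch target, went from 34.03 ± 1.2 to 20.1 ± 0.819 CPM (SD, n = 3), a log2 fold change of −0.76 (standard error 0.053, adjusted p = 3.53e-11). The BMP ligand Bmp4, the activin and BMP antagonist Fst and the BMP effector Smad9 had −0.76, −0.75 and −0.88. The Wnt receptor Fzd2 and the Wnt target Axin2 had −0.79 and −0.87, and the mesenchymal transcription factor Osr1 had −0.99. The adjusted p of Axin2 was 0.2 without the 3 libraries with liver transcripts.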
